A study of Mus musculus with 72 samples.

Results

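The genes examined, Gpam, Agpat2, Lpin1, Lpin2, Lpin3, Dgat1 and Dgat2, encode enzymes for the successive steps that build triglyceride. They were chosen by name, with earlier results of these data known. Their Ensembl identifiers were looked up in a deposited table of liver RNA counts. All 7 members were found among 50307 genes, and all 7 were among the 14954 genes with enough counts to be tested. The mice were females and males of 2 inbred strains, C57BL/6J, called B6 here, and DBA/2J, called DBA, and the 72 libraries fall into 12 groups of 6. All groups shared a Western diet and an overnight fast of 16 h before the liver was taken, and they differed in strain, sex and the isoleucine content of the diet, which was control, low or high. Mice had been on the diet for 12 weeks. The age label reads 18 weeks in every group; the design text has the diet starting at 6 weeks of age and the treatment text at 18 weeks. The labels describe no other diet and no genetic change, so the Western diet and the fast are common to every group, controls included. Nothing in them ties a library to a mouse of its own, so p-values reflect library-to-library spread, which could be technical in part. The 4 combinations of strain and sex are called classes below.

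Triglyceride is built on glycerol 3-phosphate by adding fatty acids one at a time. Gpam encodes the mitochondrial acyltransferase GPAT1, which adds the first fatty acid, and Agpat2 adds the next to form phosphatidate. Lipins remove the phosphate to give diacylglycerol, and Dgat1 and Dgat2 encode a pair of unrelated enzymes that add the last fatty acid. Lipin 1 is the main lipin of muscle and fat and in liver is known as a gene induced by fasting through glucocorticoids and the coactivator PGC-1α, with which it also acts in the nucleus. Lipin 2 is regarded as the main liver lipin.

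All positions are on GRCm38. Gpam spans chr19:55067268-55127238 on the minus strand, Agpat2 chr2:26593057-26604417 on the minus strand, Lpin1 chr12:16535669-16610966 on the minus strand, Lpin2 chr17:71182560-71249817 on the plus strand and Lpin3 chr2:160880670-160906002 on the plus strand. Dgat1 lies at chr15:76502015-76511953 and Dgat2 at chr7:99153658-99182719, both on the minus strand. Each is annotated as protein coding. The sources used here do not state whether counting used strand, and 3 members overlap a gene on the other strand, from which their reads may not be separable: Egfl7 and Gm20532 overlap Agpat2, AC110206.1 overlaps Gpam and Gm16751 overlaps Lpin3. The lincRNA Gm26561 lies on the same strand within Lpin2.

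Lpin1 and Lpin2 are the members on which most results below turn, so the RefSeq (GRCm38.p6) sequence of the 250 bases before an annotated start is shown for both, 5′ to 3′ on the strand of the gene. The Lpin1 window is chr12:16610967-16611216, minus strand, and the Lpin2 window is chr17:71183282-71183531, plus strand, before the first of the starts listed for that gene. Neither window overlaps an annotated exon, and the Lpin2 window lies inside the span given above for that gene. Capitals mark matches to the motifs searched.
Lpin1: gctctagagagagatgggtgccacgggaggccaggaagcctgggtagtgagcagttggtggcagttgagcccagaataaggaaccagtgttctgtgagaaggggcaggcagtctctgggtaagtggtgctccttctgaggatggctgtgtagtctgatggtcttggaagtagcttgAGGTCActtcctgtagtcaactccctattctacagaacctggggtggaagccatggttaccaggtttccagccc
Lpin2: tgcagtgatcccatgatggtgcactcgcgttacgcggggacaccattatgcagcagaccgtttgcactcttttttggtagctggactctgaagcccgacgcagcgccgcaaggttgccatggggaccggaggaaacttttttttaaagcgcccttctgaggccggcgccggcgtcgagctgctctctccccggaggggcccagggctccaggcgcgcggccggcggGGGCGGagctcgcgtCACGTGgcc

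The 2 windows shown differed in base composition. The Lpin1 window had a GC content of 54.8% and 1 CpG, and the Lpin2 window 65.2% and 26 CpG, against medians of 52.4% and 6 over 32851 windows of the same length. A set of 5 motifs was searched on both strands, CACGTG (E-box), TGACGTCA (cyclic AMP response element), AGGTCA (nuclear receptors), GGGCGG (GC box) and CCAAT. Lpin1 held AGGTCA starting at -74 relative to the start, a motif found in 14% of all windows, and none of the other 4. The Lpin2 window shown held CACGTG at -9, found in 6.02% of windows, and GGGCGG at -24, found in 32.7%. TGACGTCA, found in 1.55% of windows, and CCAAT, found in 33.8%, were in neither window shown. Other starts of Lpin2 gave other values. The window before start 2 had 83.2% GC, 50 CpG and GGGCGG at -79, and it overlaps Lpin2 exons. That before start 3 had 44.8% GC, 3 CpG and CCAAT at -233, -165 and -57. Neither of these held CACGTG, so the contrast with Lpin1 depends on the start chosen. These matches describe letters of the B6 reference only. Windows were listed for 5 of the 7 members, and DBA sequence was not analysed here.

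Depth ranged from 13.0 to 51.1 in units of 1000000 counts per library, with a median of 24.1. Levels are counts per 1000000 of the scaled library size (CPM). Albumin stood at 41900 to 105000 CPM, the level of a liver library, and Xist was at 216 to 1040 CPM in females against at most 0.985 in males. B6 female control library 4 was the only female library with a count of the Y-linked gene Ddx3y (0.568 CPM, against at least 15.7 in males), and it also stood apart for 3 members, as given below. DBA male high library 3 stood apart for Dgat1 and Dgat2. Calls that changed without either of them are given beside the result.

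Per length of merged exons, the members fell into tiers on the control diet. Agpat2 and Dgat2 were highest in each class, at 110.0 ± 8.33 and 97.5 ± 21.1 CPM per kb in B6 females (SD, n = 6), with overlapping ranges. Lpin2 and Gpam followed, and then Dgat1. Lpin1 and Lpin3 were at the bottom, apart from Lpin1 in B6 females, where it overlapped Dgat1 (6.23 ± 2.62 against 6.67 ± 0.929 CPM per kb, SD, n = 6). Within the second tier the mean of Lpin2 was above that of Gpam in B6 males, at 38.0 ± 7.5 against 25.3 ± 3.19 CPM per kb with overlapping ranges, and below it in DBA males, at 10.6 ± 1.19 against 22.9 ± 3.93 without overlap (SD, n = 6). With the longest transcript as length, the DBA male pair was at 23.0 and 24.7 CPM per kb and overlapped, and in DBA females Lpin2 was above Gpam, at 29.4 ± 6.52 against 19.8 ± 3.82 (SD, n = 6), as it was in B6. In DBA males Lpin3 lay above Lpin1 in all libraries on this scale (1.26 to 1.61 against 0.472 to 0.722 CPM per kb). In DBA females the same pair overlapped, and its order changed with the length used.

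**Figure D1:**
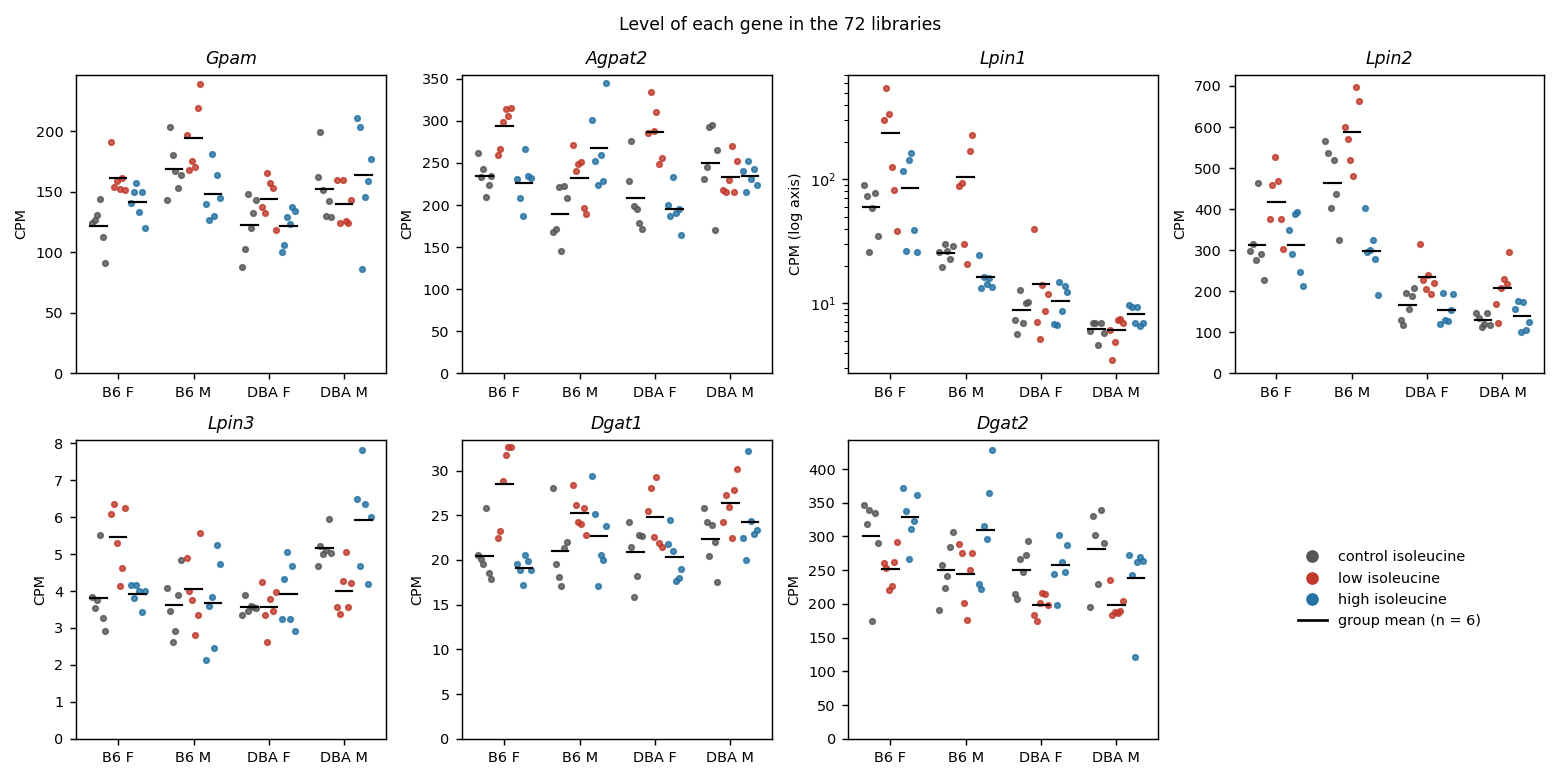
Level of each of the 7 genes (CPM) in each of the 72 libraries, as points coloured by isoleucine diet, in B6 females (B6 F), B6 males, DBA females and DBA males; bars are group means (n = 6) and the Lpin1 axis is logarithmic. Lpin1 spans 3.49 to 544 CPM, with the highest values in B6 mice on low isoleucine, while Dgat1 stays between 15.9 and 32.6 CPM.

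Low isoleucine was compared with control to ask what restriction of this amino acid does to liver transcripts. Averaged over the 4 classes, 6 of the 7 members passed edgeR's quasi-likelihood test at an adjusted p of 0.05, whereas 37.8% of all genes tested did. Of these, 5 rose (17.8% of all genes did) and Dgat2 fell (20% of all genes did). Lpin1 rose most, by 1.17 ± 0.23 on the log2 scale (SE), and Lpin2 rose by 0.48 ± 0.09, Dgat1 by 0.31 ± 0.06, Agpat2 by 0.25 ± 0.06 and Gpam by 0.18 ± 0.07. Dgat2 fell by 0.28 ± 0.07, so the 2 genes of the last step moved in opposite directions. Lpin3 differed by 0.08 ± 0.08 (adjusted p = 0.49). The median over the 7 members was 0.25, against 0.00 over all genes. In bulk liver RNA, fewer cells of a type and less RNA per cell cannot be told apart.

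Within classes the number of members called was 5 in B6 females, where 20.8% of all genes were called, and 1 in B6 males (5% of genes). It was 1 in DBA females (11.8%) and 2 for DBA males (17.7%). The plot of low against control by class shows these calls.

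**Figure D2:**
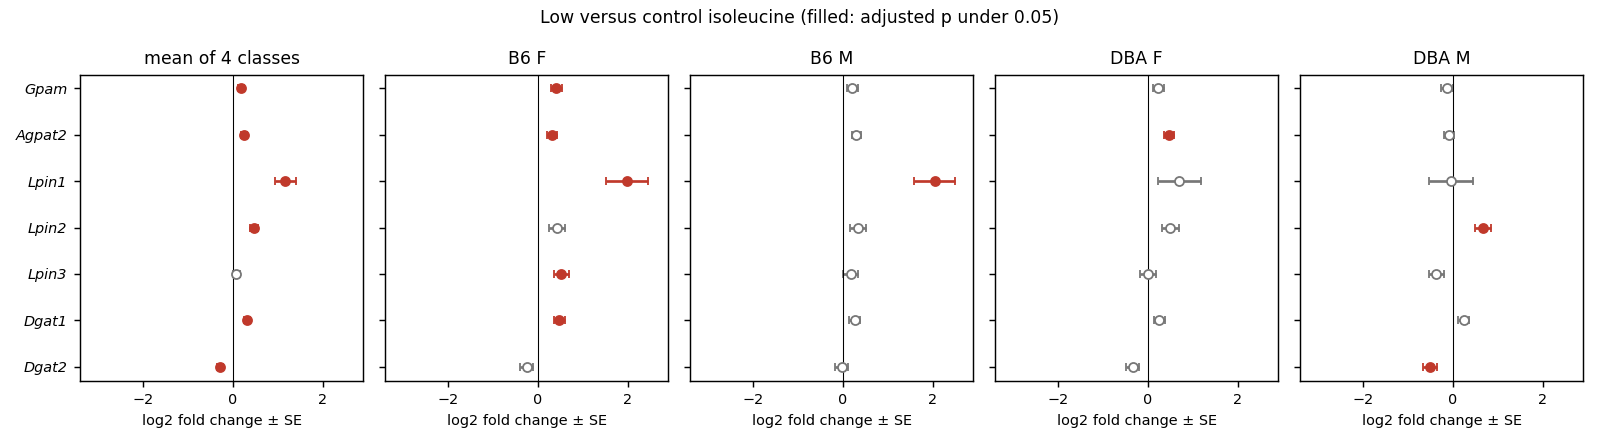
Log2 fold change of each gene, low against control isoleucine, as the mean of the 4 classes and within each class; bars are SE and filled points passed an adjusted p of 0.05. Lpin1 stands near 2 in both B6 classes and at 0.70 and -0.04 in DBA females and males, and Dgat2 lies at or below 0 in every panel.

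Gpam, the first acyltransferase, was measured in B6 females at 91.0 to 144 CPM on control (median 126) and at 151 to 191 on low isoleucine (median 157). All 6 low libraries lay above all 6 controls. The fold change was 0.41 ± 0.13 (adjusted p = 0.02), and 0.42 with the number in the library titles as a replicate block in limma, where it did not pass (adjusted p = 0.051). In B6 males the groups overlapped (143 to 203 against 168 to 239 CPM), with a fold change of 0.21 ± 0.13 (adjusted p = 0.4). DBA females stood at 0.23 ± 0.13 and DBA males at -0.13 ± 0.13, and neither passed.

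Agpat2, the next acyltransferase, was at 209 to 262 CPM (median 234) in B6 female controls and 260 to 315 (median 303) on low isoleucine, a rise of 0.32 ± 0.11 (adjusted p = 0.032). Without B6 female control library 4 the value was 0.29 and no longer passed (adjusted p = 0.06), and neither did it without the filter on low counts (0.31, adjusted p = 0.073) or with the replicate block (0.32, adjusted p = 0.085). In DBA females it was at 171 to 276 CPM (median 197) on control and 249 to 334 (median 287) on low isoleucine. Here 4 of 6 low libraries lay above all controls, and the rise was 0.46 ± 0.11 (adjusted p = 0.004). B6 males had a fold change of 0.30 ± 0.11 (adjusted p = 0.12) and DBA males one of -0.10 ± 0.11 (adjusted p = 0.62).

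Lpin1 showed the largest difference and the widest spread. In B6 females it was at 25.9 to 90.6 CPM (median 65.9) on control and 38.0 to 544 (median 212) on low isoleucine, with 4 of 6 low libraries above all controls. The rise was 1.98 ± 0.46 on the log2 scale, or 3.95-fold (adjusted p = 0.0013). In B6 males the controls kept between 19.7 and 29.9 CPM (median 26) and the low libraries ran from 20.7 to 226 (median 91.0), with 5 of 6 above all controls. The rise was 2.04 ± 0.46, or 4.11-fold (adjusted p = 0.0044). The spread of the low groups was 81% of the mean in B6 females and 76.3% in B6 males, against 42.2% and 15.1% in their controls.

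Lpin1 in DBA mice lay far lower on both diets. DBA females had 5.62 to 12.7 CPM (median 8.66) on control and 5.17 to 39.7 (median 10.2) on low isoleucine. A single library, low library 1, accounts for the top value, and the next was at 14. The fold change was 0.70 ± 0.47 (adjusted p = 0.36). DBA males had 4.56 to 6.98 CPM (median 6.47) on control and 3.49 to 7.45 (median 6.55) on low isoleucine, and the low libraries lay on both sides of the control range (-0.04 ± 0.49, adjusted p = 0.97).

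The response of Lpin1 to low isoleucine differed between the strains by an interaction term, which was 1.68 ± 0.46 lower on the log2 scale in DBA than in B6 (signed value -1.68, adjusted p = 0.046). It was the 1 member called, where 1.39% of all genes were. The call was lost without B6 female low library 2, the library with 544 CPM (-1.46, adjusted p = 0.091), without the filter on low counts (-1.67, adjusted p = 0.088), with the title number as a replicate block (-1.45, adjusted p = 0.33) and in limma with quality weights (-1.37, adjusted p = 0.15). For a difference in response between males and females, edgeR's test called 0 members, against 6.68% of all genes, with 3 members at an unadjusted p under 0.05. DESeq2 also called 0 and limma with quality weights 2.

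The wide Lpin1 values fell in pairs. Titles give each group 3 numbers, with 2 libraries (letters N and R) under each, and the labels do not say what number or letter stand for. In B6 males on low isoleucine, the pairs were 88.1 and 93.8 CPM, 30.1 and 20.7 CPM, and 170 and 226 CPM. In B6 females on low isoleucine they were 300 and 544, 335 and 125, and 81.3 and 38.0 CPM. Over the 36 pairs, deviations from the group mean had a within-pair correlation of 0.58 for Lpin1, 0.55 for Dgat1, 0.47 for Lpin2 and 0.46 for Gpam, and of 0.34, 0.26 and 0.21 for Dgat2, Agpat2 and Lpin3. Across all genes the fitted value was 0.24. With the number as a block in limma, the B6 male rise of Lpin1 was 1.60 (adjusted p = 0.078), and the 6 calls over the mean of the classes were retained. Pairs could also differ: DBA female low library 1, at 39.7 CPM, shares its number with a library at 7.03.

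**Figure D3:**
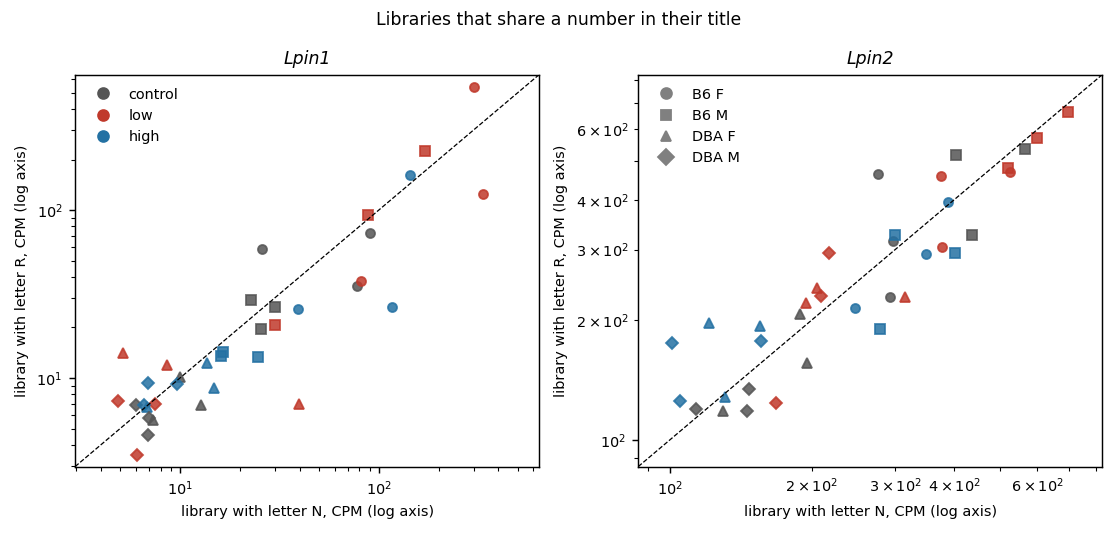
Lpin1 and Lpin2 levels (CPM, both axes logarithmic) in the 36 pairs of libraries that share a title number, letter N on the x axis and letter R on the y axis, coloured by diet and shaped by class; the dashed line marks equal values. Both libraries of a pair belong to the same group, so the spread of pairs along the line includes the differences between groups. The Lpin1 pair at 39.7 and 7.03 CPM lies farthest below the line.

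Lpin2, the liver lipin, moved by less than Lpin1 as the mean of the classes and in both B6 classes. In DBA males it moved by more, where Lpin1 was at -0.04 ± 0.49. The low mean of Lpin2 was above its control mean in each class. In DBA males it was at 114 to 147 CPM (median 127) on control and 124 to 295 (median 213) on low isoleucine, with 5 of 6 low libraries above all controls, a rise of 0.67 ± 0.18 (adjusted p = 0.0041). DBA females ran from 118 to 207 CPM (median 172) to 194 to 315 (median 225), with a fold change of 0.50 ± 0.18 that missed the threshold (adjusted p = 0.052). That value passed without B6 female control library 4 (adjusted p = 0.042) and without DBA male high library 3 (0.047). In B6 females it was 0.42 ± 0.18 (adjusted p = 0.077), and 0.57 without control library 4, whose 464 CPM was the highest of its group (adjusted p = 0.014). B6 males stood at 0.34 ± 0.18 (adjusted p = 0.28).

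Lpin3, the remaining phosphatidate phosphatase, was measured at 2.13 to 7.81 CPM. In B6 females it was at 2.92 to 5.51 (median 3.65) on control and 4.13 to 6.36 (median 5.70) on low isoleucine, a rise of 0.52 ± 0.17 (adjusted p = 0.017). In DBA males its value had the other sign, with 4.67 to 5.95 CPM on control and 3.38 to 5.05 on low isoleucine (-0.37 ± 0.17, adjusted p = 0.11). The difference in response between strains was -0.53 ± 0.17 (adjusted p = 0.088), and it passed without B6 female control library 4 (-0.60, adjusted p = 0.035) and with quality weights (-0.62, adjusted p = 0.019).

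The makeup of the lipin transcripts followed from these values. Per length, Lpin1 made up 18.8% ± 6.7 of the 3 lipins in B6 females on control and 35% ± 18.1 on low isoleucine, and 6.62% ± 2.02 and 16.1% ± 9.42 in B6 males (SD, n = 6). Group means of Lpin1 in DBA mice were 3.39% to 6.24% on these diets, and those of Lpin2 83.8% to 90.5%. Over the 6 B6 female low libraries, the Lpin1 share ran from 12.9% to 58.9%. Ranges of control and low libraries overlapped in both B6 classes.

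Dgat1 and Dgat2, which complete triglyceride, moved apart. Dgat1 in B6 females was at 17.9 to 25.8 CPM (median 19.8) on control and 22.4 to 32.6 (median 30.3) on low isoleucine, a rise of 0.48 ± 0.12 (adjusted p = 0.0019). The value of 25.8 was that of control library 4, and the other controls reached 20.6. In the other classes Dgat1 had fold changes of 0.24 to 0.26 (adjusted p = 0.16 to 0.2), and in each class all 6 low libraries lay above the control mean. Dgat2 in DBA males was at 196 to 339 CPM (median 297) on control and 184 to 235 (median 189) on low isoleucine, with 4 of 6 low libraries below all controls. It fell by 0.51 ± 0.15 there (adjusted p = 0.012), and with the replicate block the value was -0.48 and did not pass (adjusted p = 0.057). In DBA females Dgat2 had a fold change of -0.34 ± 0.15 (adjusted p = 0.13), in B6 females one of -0.25 ± 0.15 (adjusted p = 0.24) and in B6 males one of -0.03 ± 0.15 (adjusted p = 0.94). Per length, the ratio of Dgat2 to Dgat1 was 15.1 ± 4.18 on control and 8.98 ± 1.81 on low isoleucine in B6 females, and 12.8 ± 3.52 and 7.54 ± 1.16 in DBA males (SD, n = 6). B6 female control library 4 had the lowest ratio of its group, at 6.68.

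High isoleucine was compared with control to ask what an excess does. Averaged over classes, 0 members and 0% of all genes passed edgeR's test, with 0 members at an unadjusted p under 0.05, and DESeq2 also called 0 members. The mean values lay between -0.16 ± 0.09 for Lpin2 and 0.13 ± 0.23 for Lpin1. In 3 of the classes, B6 females (0% of genes called), DBA females (0.00669%) and DBA males (0.0134%), 0 members passed by edgeR or by DESeq2, and 0 had an unadjusted p under 0.05. B6 males differed from this, with 2 members called where 4.51% of all genes were. Agpat2 was at 145 to 223 CPM (median 189) on control and 224 to 345 (median 256) on high isoleucine, without overlap, a rise of 0.50 ± 0.11 (adjusted p = 0.0058). Lpin2 was at 326 to 566 CPM (median 478) on control and 190 to 402 (median 297) on high isoleucine, with 5 of 6 high libraries below all controls, and fell by 0.64 ± 0.18 (adjusted p = 0.025). Agpat2 missed the threshold when the class was fitted alone (adjusted p = 0.052). Lpin2 missed it without the filter on low counts (0.051), with quality weights (0.067) and with the title number as block (0.091).

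High against low isoleucine compared the extremes, and its libraries are those already used in the comparisons with control. Averaged over classes, 5 of 7 members passed and 43.6% of all genes did. Relative to low isoleucine, Lpin1 fell by 1.04 ± 0.23 in log2 units (adjusted p = 0.00019). Lpin2 fell by 0.64 ± 0.09, Dgat1 fell by 0.29 ± 0.06 and Agpat2 fell by 0.18 ± 0.06, and Dgat2 rose by 0.34 ± 0.07. Gpam (-0.15 ± 0.07, adjusted p = 0.062) and Lpin3 (0.02 ± 0.08) did not pass. Within classes, 4 members were called in B6 females (19.1% of genes), 3 in B6 males (25.9%) and 2 each in females (14.9%) and males (14.3%) of DBA. The largest was Lpin1 in B6 males, which ran from 20.7 to 226 CPM on low and from 13.3 to 24.6 on high isoleucine, with 5 of 6 high libraries below all low ones. It fell by 2.68 ± 0.48, or 6.41-fold (adjusted p = 2.7e-05). Lpin2 in B6 males was 480 to 698 CPM on low and 190 to 402 on high isoleucine, with no overlap, a fall of 0.98 ± 0.18 (adjusted p = 2.9e-05). In DBA males Lpin3 was higher on high isoleucine by 0.57 ± 0.17 (4.18 to 7.81 against 3.38 to 5.05 CPM, adjusted p = 0.013). Several class calls were lost in other fits. In B6 females Lpin1 was lost without low library 2 (-1.04, adjusted p = 0.094) and when the class was fitted alone (-1.46, adjusted p = 0.11). The Lpin3 call there was lost without low library 2 (-0.43, adjusted p = 0.072) and without the filter on low counts (-0.46, adjusted p = 0.073). Lpin2 was lost in DBA females without low library 1 (-0.50, adjusted p = 0.056) and in DBA males without high library 3 (-0.49, adjusted p = 0.057). Leaving out that library also brought in Gpam (0.36, adjusted p = 0.033, against 0.23 with it) and Dgat2 (0.40, adjusted p = 0.041, against 0.27) in DBA males, so that 3 members were called there. Dgat2 then passed in B6 females (0.38, adjusted p = 0.037) and DBA females (0.37, adjusted p = 0.048) too, and in B6 females it also passed without control library 4 (0.38, adjusted p = 0.046). With the replicate block the calls lost were Lpin1 (-1.36, adjusted p = 0.056) and Lpin3 (-0.47, adjusted p = 0.08) in B6 females, Gpam in B6 males (-0.40, adjusted p = 0.056) and Lpin2 in DBA males (-0.55, adjusted p = 0.06).

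Strains were compared on the control diet. Of the 7 members 2 passed, where 45.4% of all genes did, both of them lipins lower in DBA (22.5% of all genes were lower and 22.9% higher). Lpin1 was at 19.7 to 90.6 CPM (median 29.5) in the 12 B6 control libraries and 4.56 to 12.7 (median 6.93) in the 12 DBA ones, with no overlap. The difference was -2.41 ± 0.34 on the log2 scale, a level 5.3-fold lower in DBA (adjusted p = 2.4e-08). Lpin2 was at 228 to 566 CPM (median 365) in B6 and 114 to 207 (median 140) in DBA, again with no overlap, and the difference was -1.38 ± 0.13 (2.6-fold lower, adjusted p = 6.3e-15). Gpam (-0.07 ± 0.09), Agpat2 (0.12 ± 0.08), Dgat1 (0.06 ± 0.08), Dgat2 (-0.05 ± 0.11) and Lpin3 (0.21 ± 0.12) did not pass. On low isoleucine 11 of the 12 DBA libraries lay below all B6 libraries for Lpin1, and 11 of 12 for Lpin2. On high isoleucine the counts were 10 and 10. DBA reads were aligned to GRCm38, which is the B6 genome, per the labels, and the effect of strain variants on these counts was not tested.

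The strain differences of Lpin1 and Lpin2 were called in each sex. Females had 2 members called (32.3% of genes), Lpin1 at -2.78 ± 0.48 and Lpin2 at -0.91 ± 0.18. Without B6 female control library 4, Dgat2 was also called in females (-0.38, adjusted p = 0.041, against -0.26 with it). Males had 4 called (40.5% of genes), Lpin1 at -2.04 ± 0.48, Lpin2 at -1.84 ± 0.18, Agpat2 at 0.40 ± 0.11 and Lpin3 at 0.51 ± 0.17. By an interaction term the strain difference of Lpin1 was not shown to differ between the sexes (0.74 ± 0.66, adjusted p = 0.49), and that of Lpin2 is given below with the sexes.

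Sexes were compared on the control diet as well. Over both strains 2 members were called, where 26.2% of all genes were. Gpam was at 87.5 to 148 CPM (median 126) in females and 129 to 203 (median 157) in males, with 8 of 12 males above all females, and was 0.39 ± 0.09 higher in males (adjusted p = 0.0009). Lpin1 was lower in males by 0.87 ± 0.33 (signed value -0.87, adjusted p = 0.044), which was lost with no filter on low counts (adjusted p = 0.072), with quality weights (0.095) and with the replicate block (0.19). Lpin3 passed without B6 female control library 4 (0.31, adjusted p = 0.045, against 0.24 with it). In B6, 4 members were called (17.4% of genes): Gpam at 0.47 ± 0.13, Lpin2 at 0.57 ± 0.18, Agpat2 at -0.31 ± 0.11 (adjusted p = 0.049) and Lpin1 at -1.24 ± 0.45 (adjusted p = 0.048), the last not passing without B6 female control library 4 (0.052). The Agpat2 value did not pass without DBA female low library 1 (0.051) or without B6 female low library 2 (0.05 as rounded), and with the replicate block neither Agpat2 (0.1) nor Lpin1 (0.14) did. In DBA, 1 member was called (25.7% of genes). This was Lpin3, at 3.35 to 3.88 CPM in females and 4.67 to 5.95 in males, without overlap (0.54 ± 0.17, adjusted p = 0.013). Gpam in DBA, at 0.32 ± 0.13, passed without DBA male high library 3 (adjusted p = 0.035).

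For 2 members the sex difference itself differed by strain, where 15% of all genes did. Lpin2 on control was higher in B6 males (mean 464 ± 91.7 CPM, SD, n = 6) than in B6 females (312 ± 80.2), and in DBA the means had the other order (130 ± 14.5 in males and 166 ± 36.8 in females). The interaction was -0.92 ± 0.25 (adjusted p = 0.0072). Agpat2 went the other way, with B6 males at 189 ± 32.6 and females at 234 ± 17.7 CPM, and DBA males at 250 ± 46.5 and females at 208 ± 38.8 (SD, n = 6). Its interaction was 0.57 ± 0.16 (adjusted p = 0.011). The plot of strain and sex effects shows these opposed signs.

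**Figure D4:**
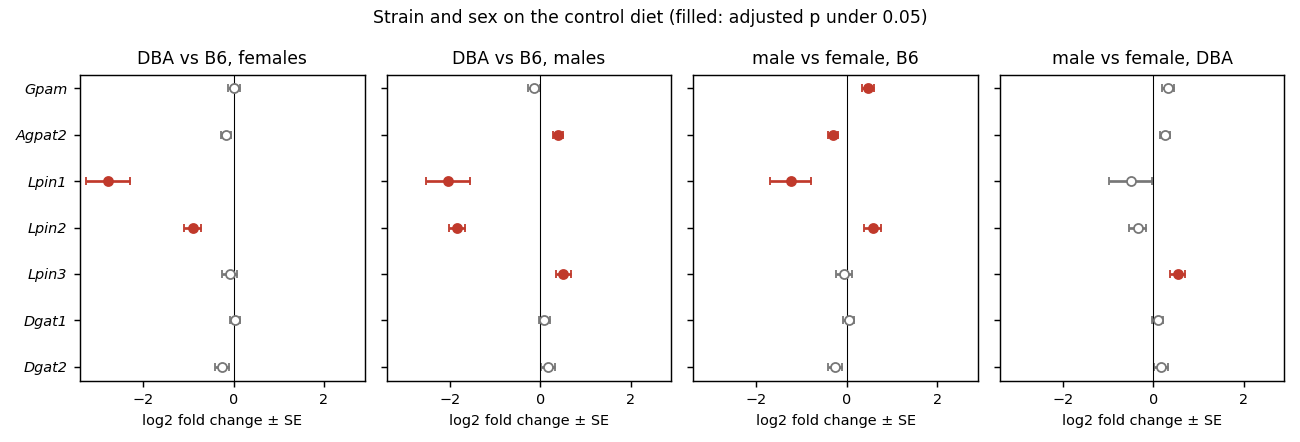
Log2 fold change of each gene on the control diet, for DBA against B6 within each sex and for males against females within each strain; bars are SE and filled points passed an adjusted p of 0.05. Lpin1 and Lpin2 are the 2 genes below 0 and filled in both strain panels, and Lpin2 lies above 0 in the B6 sex panel and below 0 in the DBA one.

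Genes around the pathway were followed in fixed lists, low against control over the mean of classes, where 17.8% of all genes rose and 20% fell. Of 13 other acyltransferases tested, 4 rose and 2 fell (median -0.03). Gpat4, a microsomal counterpart of Gpam, rose by 0.25 ± 0.08 and Agpat3 by 0.16 ± 0.04, while Mogat1, which makes diacylglycerol from monoacylglycerol, fell by 1.17 ± 0.28 and Gpat2 by 0.41 ± 0.10. Of 6 genes that handle glycerol or glycerol 3-phosphate, 2 rose and 0 fell (median -0.04). They were the glycerol channel Aqp3, by 1.08 ± 0.38, and Gpd2, by 0.32 ± 0.09, a mitochondrial enzyme that oxidises glycerol 3-phosphate and so does not supply it. Of 13 other enzymes of phosphatidate and diacylglycerol, 3 rose and 0 fell (median 0.02), among them the lipid phosphatase Plpp1 by 0.68 ± 0.10 and the kinase Dgkq, which turns diacylglycerol back into phosphatidate, by 0.23 ± 0.07. Of 12 genes of phospholipid synthesis from diacylglycerol, 2 rose and 1 fell (median 0.01). The choline kinases Chka and Chkb rose by 0.69 ± 0.17 and 0.39 ± 0.07, and the ethanolamine kinase Etnk2 fell by 0.36 ± 0.10. These enzymes act on choline or ethanolamine and not on diacylglycerol, and no gene of the list whose enzyme uses diacylglycerol passed.

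Calls among genes that break down or store triglyceride went both ways, where 17.8% of all genes rose and 20% fell. Of 13 genes of hydrolysis, 3 rose and 2 fell (median -0.10). Lipoprotein lipase, Lpl, rose by 0.88 ± 0.19 and the droplet lipase Pnpla2 by 0.32 ± 0.08, while the carboxylesterase Ces3a fell by 0.56 ± 0.09 and Abhd5, the activator of Pnpla2, by 0.19 ± 0.05. Of 15 genes of droplets and lipoprotein packaging, 3 rose and 4 fell (median 0.03). The droplet coat gene Plin5 rose by 0.81 ± 0.09 (adjusted p = 8.9e-11) and Hilpda by 0.40 ± 0.11, while Fitm1 fell by 1.32 ± 0.20 and Cideb by 0.30 ± 0.05. Of 18 genes of fatty acid supply and desaturation, 3 rose and 7 fell (median -0.03). The desaturases Fads2 and Fads1 fell by 0.46 ± 0.07 and 0.39 ± 0.08, and Acacb, whose product restrains fatty acid oxidation, rose by 0.48 ± 0.10 and the transporter Slc27a2 by 0.15 ± 0.04.

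Of 12 regulators linked to lipins or to triglyceride synthesis, 2 rose (17.8% of all genes did) and 5 fell (20% did), with a median of -0.12. Ppargc1a, the gene of PGC-1α, rose by 0.72 ± 0.15 (adjusted p = 0.00014) and Hnf4a by 0.22 ± 0.06, whereas Pparg fell by 0.67 ± 0.10 (adjusted p = 9.5e-08) and Srebf1, a driver of fatty acid synthesis, by 0.57 ± 0.14.

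The same lists were counted between strains on control, where 22.9% of all genes were higher and 22.5% lower in DBA. Higher and lower genes were 3 and 4 of 13 other acyltransferases and 0 and 3 of 6 genes that handle glycerol or glycerol 3-phosphate. They were 3 and 3 of 13 other enzymes of phosphatidate and diacylglycerol, and 0 and 2 of 12 genes of phospholipid synthesis from diacylglycerol. They were 4 and 4 of 13 genes of hydrolysis, 0 and 9 of 15 of droplets and packaging, 1 and 9 of 18 of fatty acid supply, and 5 and 2 of 12 regulators.

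**Figure D5:**
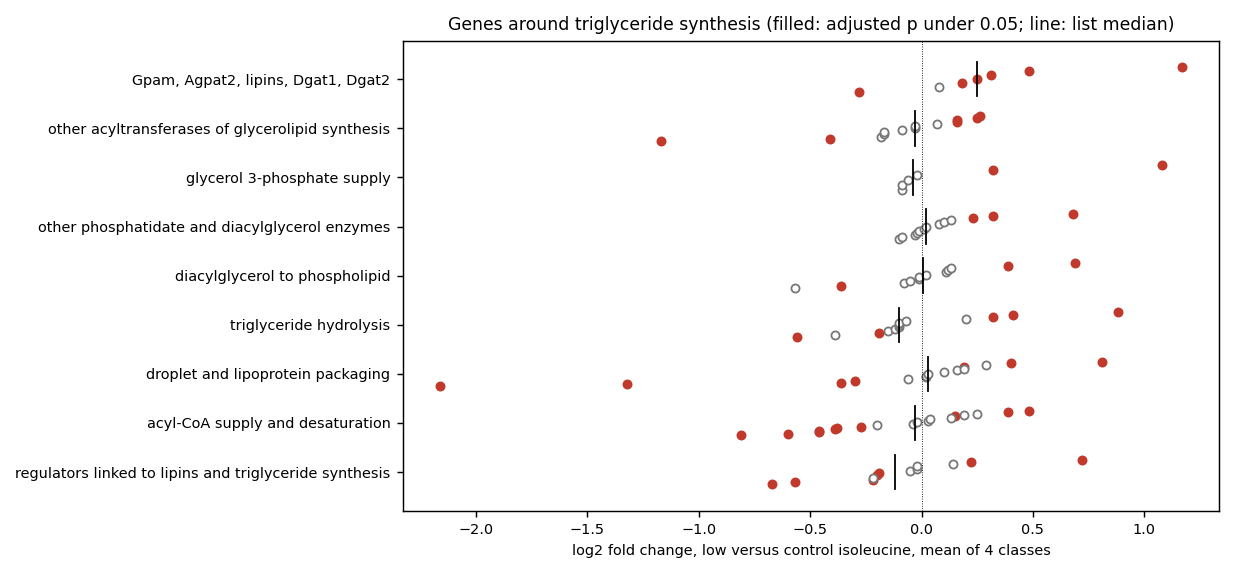
Log2 fold change, low against control isoleucine, mean of the 4 classes, for the 7 genes and for 8 lists of genes around triglyceride synthesis; each point is a gene, filled points passed an adjusted p of 0.05 and the vertical bar is the list median. The 7 genes have a median of 0.25, and the medians of the lists lie between -0.12 and 0.03. Genes and lists were chosen with earlier results of these data known.

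Markers of some cell types moved with the diet, where 17.8% of all genes rose and 20% fell on low isoleucine. Of 7 macrophage markers 0 rose and 5 fell on low isoleucine, and their summed level was 114 to 448 CPM on control and 49.3 to 203 on low isoleucine in B6, and 68.1 to 188 and 93.3 to 152 in DBA. Of 6 markers of sinusoidal endothelium 4 rose and 0 fell, with sums of 108 to 202 and 148 to 240 CPM in B6 and of 88.4 to 252 and 154 to 234 in DBA. Of 7 hepatocyte markers tested 3 rose and 0 fell, with sums of 77500 to 125000 and 98800 to 129000 CPM in B6 and of 85600 to 117000 and 98300 to 147000 in DBA. No marker of these 3 lists was at 0 throughout a group of libraries. Other lists moved less: of 6 stellate cell markers 0 rose and 1 fell, and of 6 lymphocyte markers 0 rose and 1 fell. Of 5 cholangiocyte markers 1 rose and 1 fell. On high isoleucine in B6, the strain with calls for Agpat2 and Lpin2 in males, macrophage markers summed to 73.9 to 537 CPM. From low to high isoleucine, where 43.6% of all genes were called, 7 of 7 macrophage markers rose. Of 6 endothelial markers 0 rose and 4 fell, and of 7 hepatocyte markers 0 rose and 4 fell. Of 6 stellate cell markers 1 rose and 1 fell, of 6 lymphocyte markers 1 and 0, and of 5 cholangiocyte markers 0 and 1. The part of these cell types in the changes of the 7 genes was not tested.

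Fat and muscle are tissues rich in Lpin1. Of 6 adipocyte markers 2 were tested, of which 0 rose and 1 passed as lower on low isoleucine (Cfd, which fell by 2.34 ± 0.62), and their sum was 5.18 to 17.4 CPM on control and 6.88 to 19.8 on low isoleucine in B6, and 5.14 to 23.1 and 7.69 to 12.8 in DBA. On high isoleucine in B6 the sum had a median of 13.4 CPM, against 9.54 on control, and its highest value was 199. Lep was at 0 in all of these B6 high libraries. Adipoq had a median of 0.0448 CPM and a highest value of 2.03 over all libraries, in DBA female control library 6, where Lpin1 was at 10.2 CPM. Lep reached 0.173 CPM, in B6 female low library 3, where Lpin1 was at 335 CPM. Of 5 muscle markers 1 was tested and did not pass. Acta1 had a median of 0 and was at most 0.216 CPM in all libraries but 1, DBA male low library 2, where it was at 7.97. Lpin1 in that library was 3.49 CPM, the lowest of all. The part of fat or muscle RNA in the Lpin1 levels was not tested. Between strains on control, 22.9% of all genes were higher and 22.5% lower in DBA. Of 7 macrophage markers 0 were higher and 6 lower in DBA, and of 7 hepatocyte markers 3 were higher and 1 lower. Lower in DBA were also 4 of 6 stellate cell markers, 4 of 5 cholangiocyte markers and 3 of 6 lymphocyte markers, with 0, 0 and 1 higher, and of 6 endothelial markers 1 was higher and 1 lower. Cholangiocyte markers summed to 42.2 to 129 CPM in B6 controls and 17.5 to 38.3 in DBA controls, with no overlap. Of 5 pancreas markers 1 was tested, and it was higher in DBA by 2.43 on the log2 scale. The pancreas sums were 3.58 to 6.84 CPM in B6 controls and 15.2 to 53.7 in DBA controls, again with no overlap. Of these markers, Prss1, Cpa1, Pnlip and Ins2 were at 0 in all B6 control libraries, so the B6 sum is that of Cela1 alone. Prss1 was at 0 in all DBA control libraries too. The part of these cell types in the strain differences of Lpin1 and Lpin2 was not tested.

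For each member, the 3 most similar patterns were sought among 11311 genes by Pearson's correlation of the 12 group means of log2 CPM, as a description over few points that share libraries. Lpin1 was most like Fam234b (0.978), Rnf144a (0.968) and Klhl7 (0.966), and Lpin2 was most like Psmd9 (0.989), Btg3 (0.983) and Slc25a42 (0.983). Over the 72 libraries after centring each class, the value for Lpin1 was 0.687 with Fam234b, 0.417 with Rnf144a and 0.0426 with Klhl7. For Lpin2 it was 0.517 with Psmd9, 0.663 with Btg3 and 0.212 with Slc25a42. For Gpam the closest was Ndufs1 (0.947), for Agpat2 Tomm40 (0.912), for Lpin3 Mkrn1 (0.879) and for Dgat1 Nudt4 (0.946). Agmat (0.954) and Tpgs2 (0.949) were among the 3 most like Dgat2. After centring each class, the values were 0.656 for Ndufs1, 0.665 for Tomm40, 0.389 for Mkrn1 and 0.716 for Nudt4. They were 0.156 for Agmat and 0.438 for Tpgs2. No member was among the 3 closest of another.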

How the data were processed

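Liver RNA of 72 libraries was sequenced and aligned to GRCm38.p5, and expected counts per Ensembl gene were made by the authors, per the labels' protocols. Not given in the sources used here are the aligner, the counting program and its strand setting. The labels name a polyA-enriched stranded mRNA kit in one field and a total RNA guide in another. R 3.4.3, edgeR and limma appear in the submitters' processing notes. The authors' deposited tables of comparisons were not used, because their codes are not paired with the labels. Of the deposited expected counts, 9.56% of nonzero values were not whole, and all were rounded. The last line of the table is incomplete (3 values) and was left out, 0 columns were left unmapped, and 50255 identifiers matched the GENCODE annotation while 52 did not.

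Counts were filtered with filterByExpr, scaled by TMM (factors 0.84 to 1.14) and tested by edgeR's robust quasi-likelihood test on a model that held the 72 libraries together with a mean for each of 12 groups (common biological coefficient of variation 0.21). P-values were adjusted by Benjamini and Hochberg's method over all 14954 genes, with a threshold of 0.05, and ± after a log2 fold change is the SE. The fit shares 1 dispersion per gene over groups of unequal spread. Scripts were tested on simulated data. The software was DESeq2 1.42.0, limma 3.58.1 and edgeR 4.0.16 under R 4.3.3. Columns were matched to libraries by title, and groups were taken from the strain, sex and diet labels.

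The 7 members and the lists were chosen with earlier results of these data known. By the naming rule, all 7 members are given whatever their test, with up to 2 genes per list and direction with the lowest adjusted p for low against control, and the 3 genes most like each member with a mean of at least 1 CPM. One gene named by that rule is not reported here.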

Additional observations from a re-analysis of the deposited data

Results flagged for a closer look

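For each member, each group of 6 libraries was tested for a library far from the others (Dixon's gap test, 95% level), 84 groups in all. Chance flags about 1 in 20 groups, and 8 were flagged. B6 female control library 4 was the lowest of its group for Dgat2, at 174 CPM, and the highest for Lpin3, at 5.51 CPM, and for Dgat1, at 25.8 CPM. DBA male high library 3 was the lowest for Dgat2, at 121 CPM, and the highest for Dgat1, at 32.2 CPM. The others were the highest of their groups: Gpam in B6 female low library 1, at 191 CPM, Lpin1 in B6 male high library 1, at 24.6 CPM, and Lpin1 in DBA female low library 1, at 39.7 CPM.

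Effects that differed between groups by an interaction term were 3. The response of Lpin1 to low isoleucine differed between strains by -1.68 on the log2 scale. The sex difference on control differed between strains by 0.57 for Agpat2 and by -0.92 for Lpin2.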

How the results depend on the processing

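Other settings were size factors by RLE, no filter on low counts, a fit within the class, DESeq2, limma voom with quality weights or with the title number as replicate block, and leaving out single libraries, of which B6 female control library 4 was planned and the other 3 (B6 female low library 2, DBA female low library 1 and DBA male high library 3) were chosen after seeing the data. No paired analysis across groups was possible because the groups compared share no title numbers within a class. The 6 calls for low against control and 5 for high against low, as class means, and the 2 for DBA against B6 kept their number in every setting, apart from 3 for DBA against B6 with quality weights. The counts below are those that differed by more than 1.5 times from the counts given above. With the replicate block the members called were 3 in B6 females, 0 in B6 males and 1 in DBA males for low against control, 1 in B6 males for high against control, 2 in B6 females and 1 in DBA males for high against low, 0 for the strain difference in response, and for males against females 1 overall and 2 in B6. With quality weights they were 2 in B6 males and 5 in DBA females for low against control, 1 in B6 males for high against control, 5 in B6 males and 4 in DBA females for high against low, 2 for the sex difference in response, and for males against females 1 overall and 3 in DBA. The strain difference in response stayed at 1 with quality weights, but the member was Lpin3 in place of Lpin1. With no filter they were 1 in B6 males for high against control, 0 for the strain difference in response, and for males against females 1 overall and 2 in B6. Fitted within the class, low against control had 3 in DBA females and high against control 1 in B6 males, and DESeq2 gave 2 in DBA females for low against control. Leaving out a library gave 1 to 2 in DBA females for low against control, 2 to 5 in B6 females and 1 to 3 in DBA females for high against low, 0 to 2 for the strain difference in response and 1 to 2 for males against females in DBA. The cause of these differences was not tested.

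No called value changed sign. Values near 0 did, and the cause was not tested. With the block they were Lpin3 for low against control in DBA females (-0.008), Gpam for high against control in DBA females (0.007) and Gpam for DBA against B6 in females (-0.003). With quality weights the first 2 were -0.032 and 0.071, and the others were Lpin3 for DBA against B6 in females (0.016) and for males against females in B6 (0.016), Agpat2 for males against females (0.009) and Agpat2 for high against low in DBA males (-0.007). The last was also -0.001 by RLE, -0.008 within the class and -0.001 by DESeq2. Leaving out single libraries, Lpin3 ranged from -0.05 to 0.002 for low against control in DBA females, from -0.001 to 0.035 for high against low, from -0.094 to 0.045 for DBA against B6 in females and from -0.065 to 0.075 for males against females in B6. Lpin1 ranged from -0.45 to 0.16 for high against low in DBA females, Lpin2 from -0.026 to 0.1 for the sex difference in response, Agpat2 from -0.017 to 0.005 for high against low in DBA males, and Dgat1 from -0.001 to 0.043 for high against control and from -0.026 to 0.054 for the sex difference between strains.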
